A study of Rattus norvegicus with 6 samples.

Results

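The machinery that docks, primes and fuses insulin granules was examined through 9 genes: *Snap25*, *Stx1a*, *Vamp2*, *Syt7*, *Rab3a*, *Rab27a*, *Unc13a*, *Rims2* and *Sytl4*. They were chosen by name, as the spots of the array whose gene name was one of these, and all 9 were found among the 17960 genes with a RefSeq symbol. They were read by 14 probes on 41 spots: 5 genes had 1 probe, 3 genes had 2 and *Rims2* had 3. Expression came from 6 arrays of 1 colour (Cy3) on which β-cells of young adult male Wistar rats were hybridized, 3 of replicating and 3 of quiescent cells. Each of 3 islet preparations pooled the islets of 4 rats and gave 1 sample of each group. All islets were cultured overnight in low glucose with EdU, a thymidine analogue that marks cells in S phase. After dispersion, the cells of both groups were loaded with the zinc dye Newport Green, fixed, permeabilized and gated on size, granularity and green fluorescence. EdU-positive cells formed the replicating group and EdU-negative cells the quiescent group. The groups were thus defined by passage through S phase during the labelling, and strain and treatment were the same. The paper also reports fewer cells and less RNA for the replicating fraction. It obtained similar results from a like number of quiescent cells, and so excluded a lower RNA content of replicating cells. The difference in the size of the fractions cannot be told apart from the group.

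Insulin is stored in dense-core granules that fuse with the plasma membrane when calcium enters the β-cell. Fusion is driven by a SNARE complex, in which VAMP2 on the granule pairs with syntaxin-1A and SNAP-25 on the plasma membrane. Synaptotagmin-7 senses the calcium, the small GTPases RAB3A and RAB27A with the RAB27 effector granuphilin (*Sytl4*) tether granules to the membrane, and MUNC13-1 (*Unc13a*) and RIM2 (*Rims2*) prime them for release.

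Values below are log2 expression values, and a ratio is the replicating minus the quiescent value, so a ratio of 1 is a doubling. A gene was called when its limma p was at most 0.05 without adjustment and its ratio was at least 1 or at most -1, the thresholds of the study. Where a gene had more than 1 probe, the brightest over all 6 arrays stood for it, and levels are not compared between probes. The quiescent array of preparation 2 stood apart: its Pearson r with the other arrays over 44652 probes was 0.654 to 0.83, against 0.867 to 0.986 among the other 5 (0.867 to 0.887 for the quiescent array of preparation 1), and 1583 of its spots were marked as outliers against 252 to 299. Of all probes, 80.7% to 98.4% were well above background on an array, the highest share being on that quiescent array. The quiescent array of preparation 3 was closer to the replicating arrays, with r of 0.943 to 0.969, than to the quiescent array of preparation 1, with r of 0.867. The 6 cycling-cell markers were all called higher in replicating cells, with *Cdk1* at a ratio of 4.38 ± 0.42 (SE, n = 3 pairs). The insulin genes read 15.51 to 17.20 on the 6 arrays, with ratios of 0.25 ± 0.34 for *Ins1* and 0.42 ± 0.34 for *Ins2*, and neither was called. By quantitative PCR, the paper reports significantly lower insulin expression in replicating cells. The β-cell markers as a list are given below.

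None of the 9 exocytosis genes was called. Of all genes with a symbol, 5.63% were called higher and 2.76% lower, so that fewer than 1 gene of 9 would be called in either direction at these shares. Their median ratio was 0.30, against -0.001 over all genes, with 5 genes above 0 and 4 below. Without preparation 2 the median was -0.27, and without preparation 3 it was 0.64. No gene of the list had an unadjusted p of at most 0.05. The adjusted p (limma, Benjamini-Hochberg over 45598 probes) was under 0.05 for 0% of all probes, the smallest being 0.0977, and 4379 probes had an unadjusted p of at most 0.05. The intervals of the ratios were wide, and 5 of the 9 upper limits lay above 1, and 3 of the 9 lower limits lay below -1, so that a rise or a fall of more than 2 times lay within those intervals.

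**Figure D1:**
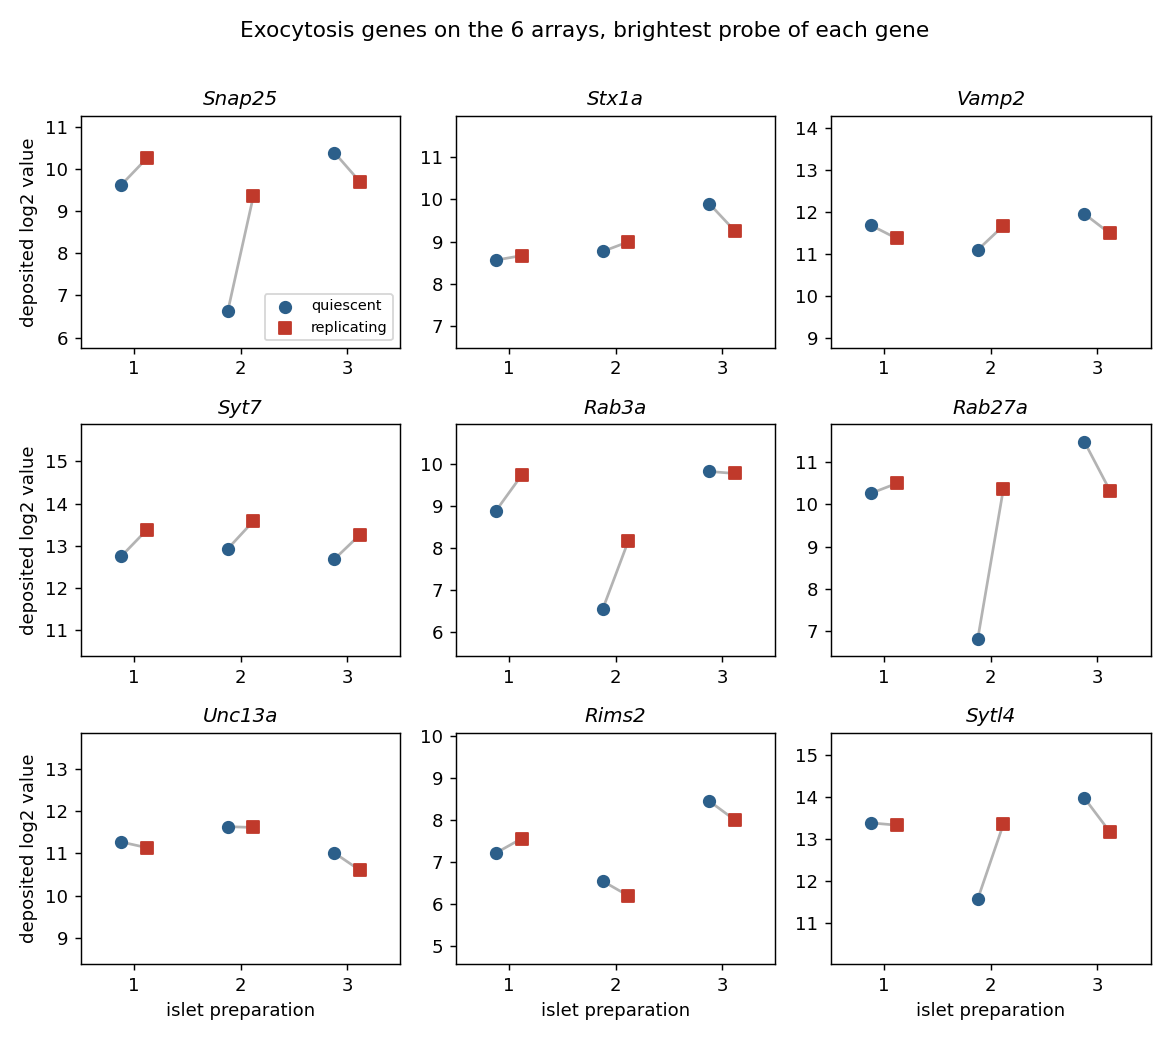
Deposited log2 value of the brightest probe of each exocytosis gene (y axis, a span of 5.5 in every panel) by islet preparation (x axis), with blue circles for quiescent and red squares for replicating samples of the same preparation joined by a line. *Snap25*, *Vamp2*, *Rab3a*, *Rab27a* and *Sytl4* read lowest on the quiescent array of preparation 2, and *Syt7* is the gene in which all 3 replicating values lie above all 3 quiescent values.

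Among the SNARE proteins, *Snap25*, the plasma membrane SNARE that contributes a pair of helices to the complex, read 10.26, 9.36 and 9.70 in replicating cells of preparations 1, 2 and 3. In quiescent cells it read 9.62, 6.63 and 10.40. The replicating values fell inside the quiescent range, which was stretched by a single low array. The ratio was 0.89 ± 0.69 (SE), with a 95% interval of -0.87 to 2.65 and an adjusted p of 0.555 by limma. By preparation it was 0.63, 2.73 and -0.70, and without preparation 2 it was -0.03.

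*Stx1a*, the syntaxin that anchors the complex in the plasma membrane, read 8.66, 8.99 and 9.25 in replicating cells and 8.56, 8.76 and 9.90 in quiescent cells. The groups overlapped, and the highest of the 6 values was the quiescent one of preparation 3. Its ratio was -0.11 ± 0.35, with an interval of -0.99 to 0.78.

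*Vamp2*, the SNARE of the granule membrane, read 11.38, 11.68 and 11.49 in replicating cells and 11.69, 11.10 and 11.96 in quiescent cells with its brightest probe. The replicating values lay within the quiescent range, and the ratio was -0.07 ± 0.36 with an interval of -0.99 to 0.86. The other *Vamp2* probe, upstream on chromosome 10, gave a ratio of 0.62 ± 0.37 and was above 0 in each preparation, at 0.15, 1.32 and 0.38. Neither probe was called, and their signs differed.

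*Syt7*, the calcium sensor, had the smallest spread between quiescent samples, an SD of 0.13. Its brightest probe read 13.37, 13.58 and 13.26 in replicating cells and 12.74, 12.92 and 12.68 in quiescent cells. Every replicating value lay above every quiescent value, as in 10.6% of all genes, while 6.23% had every replicating value below. The ratio was 0.63, 0.66 and 0.58 in the 3 preparations, and the mean of 0.62 ± 0.30 had an interval of -0.15 to 1.39 and an adjusted p of 0.475 by limma. Neither the p nor the ratio reached its threshold.

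The other *Syt7* probe went the opposite way. It read 12.60, 12.89 and 12.69 in replicating cells and 13.35, 13.60 and 12.75 in quiescent cells, with ratios of -0.75, -0.72 and -0.05 and a mean of -0.51 ± 0.33 (interval -1.36 to 0.34). The probes are neighbours on the plus strand of chromosome 1 (rat build rn4), at chr1:212931621-212931680 and chr1:212931696-212931755, with 15 bases between them, in the coding part for the second C2 domain of synaptotagmin-7. They are shown because probes so close on 1 transcript gave ratios of opposite sign, and capitals mark G and C, which make up 45% of the first and 48.3% of the second:
A_44_P1082903: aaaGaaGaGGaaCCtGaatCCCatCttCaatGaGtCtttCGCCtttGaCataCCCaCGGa
A_64_P042219: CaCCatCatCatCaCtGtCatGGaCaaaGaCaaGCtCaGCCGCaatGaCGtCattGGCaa

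The ratio of the upstream probe exceeded that of the downstream probe in all 3 preparations, on average by 1.13 on the log2 scale. The two-sided exact permutation test over the 3 pairs gave p = 0.25, the smallest p that 3 pairs allow, for a difference noticed in these data. With the median of the probes in place of the brightest, the ratio of *Syt7* was 0.06. A direction for *Syt7* as a gene was therefore not settled by these arrays.

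**Figure D2:**
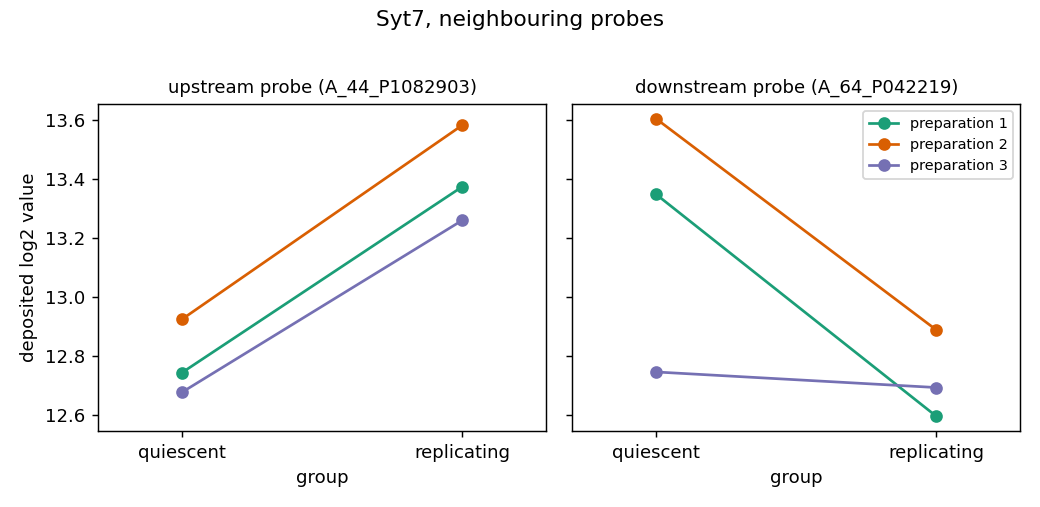
Deposited log2 values (y axis) of the neighbouring *Syt7* probes in quiescent and replicating cells (x axis), 1 line per islet preparation. The upstream probe reads higher in replicating cells in all 3 preparations and the downstream probe lower, by 0.05 in preparation 3.

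Among the granule tethering genes, *Rab3a* encodes a GTPase of the granule surface. Its single probe, shown because *Rab3a* is the only exocytosis gene of the 9 that was called under any alternative, lies on the minus strand at chr16:19190472-19190531 (rn4), in the coding part, with G and C in capitals:
A_43_P11661: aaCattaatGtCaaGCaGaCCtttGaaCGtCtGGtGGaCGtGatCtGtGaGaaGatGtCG

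*Rab3a* read 9.74, 8.17 and 9.77 in replicating cells and 8.89, 6.56 and 9.82 in quiescent cells. Both samples of preparation 2 were the lowest of their group, and the groups overlapped. The ratio was 0.84, 1.62 and -0.05 in preparations 1 to 3, with a mean of 0.80 ± 0.43 and an interval of -0.28 to 1.89 (adjusted p 0.482, limma). Without preparation 3 it was 1.23, and *Rab3a* was then called higher, whereas without preparation 2 it was 0.40.

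*Rab27a*, the GTPase that recruits granuphilin and other effectors, was the most even gene in replicating cells, at 10.50, 10.37 and 10.33. In quiescent cells it read 10.27, 6.81 and 11.49, the widest range of the 9 genes. The replicating values lay inside it. The ratio was 0.88 ± 0.92, with an interval of -1.47 to 3.23, and by preparation it was 0.23, 3.56 and -1.16. Without preparation 2 its sign turned, to -0.46.

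*Sytl4*, which encodes granuphilin and holds docked granules at the membrane, repeated this pattern with a smaller range. Its brightest probe read 13.33, 13.35 and 13.16 in replicating cells and 13.38, 11.58 and 13.97 in quiescent cells. The ratio was 0.30 ± 0.57 (interval -1.14 to 1.75), and it was -0.43 without preparation 2. The other probe read 8.38, 8.41 and 9.11 against 8.32, 8.12 and 9.36, and its ratio of 0.03 ± 0.32 came with overlapping groups.

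Of the priming genes, *Unc13a*, which opens syntaxin for SNARE assembly, read 11.14, 11.62 and 10.60 in replicating cells and 11.27, 11.64 and 11.01 in quiescent cells. The samples of a preparation lay close together, and the ratio was below 0 in each, at -0.13, -0.02 and -0.41. The mean of -0.19 ± 0.31 had an interval of -0.98 to 0.60. *Unc13a* and *Syt7* were the 2 genes of the 9 whose ratio had the same sign in all 3 preparations, a share of 22.2% against 36.2% of all genes.

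*Rims2*, the scaffold that links RAB3 to MUNC13, was the only one of the 9 whose brightest probe was not well above background on every array, failing on the replicating array of preparation 2. It read 7.56, 6.20 and 8.0 in replicating cells and 7.22, 6.55 and 8.45 in quiescent cells. The groups overlapped, with a ratio of -0.15 ± 0.34 (interval -1.02 to 0.71). With the scanner's processed signal the ratio of this probe was -1.94 and was not called either. The 3 probes disagreed. The probe farthest upstream, well above background on all 6 arrays, read 7.64, 7.71 and 7.51 against 7.28, 6.39 and 7.06, so its groups did not overlap, and its ratio was 0.71 ± 0.36 with an interval of -0.20 to 1.62. The third probe gave 0.18 ± 0.33.

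**Figure D3:**
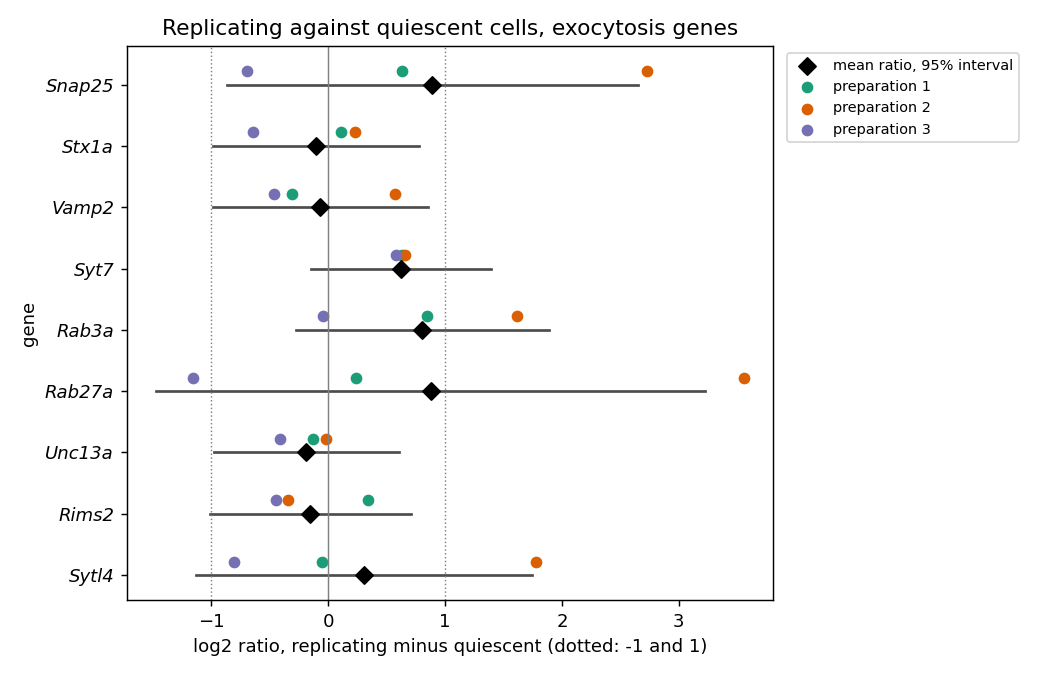
Log2 ratio of replicating against quiescent cells (x axis) for the brightest probe of each exocytosis gene (y axis), with a diamond for the mean of 3 preparations, a bar for its 95% interval and coloured points for each preparation. All 9 intervals include 0, and the points of preparation 3 lie below 0 for every gene but *Syt7*.

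The ratios differed between the preparations. In preparation 2, 7 of the 9 ratios were above 0, with a median of 0.66, against 52.2% of all genes. In preparation 3, 1 of 9 was above 0, with a median of -0.47, against 43.7% of all genes. Preparation 1 gave 6 of 9 above 0 and a median of 0.23, and the share over all genes was 54.2%. Over all probes, the ratio had an r with the probe's G and C share of -0.1882, -0.1794 and 0.1735 in preparations 1, 2 and 3. The part of G and C content in the exocytosis ratios was not tested.

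The quiescent samples spread more than the replicating samples. The SD over quiescent samples exceeded that over replicating samples in 7 of 9 genes, as in 86.4% of all genes. The quiescent array of preparation 2 held the lowest of the 6 values for 5 of the 9 genes (38.4% of all genes), and that of preparation 3 the highest value for 7 of 9 (20.8% of all genes). On the quiescent array of preparation 2, *Snap25*, *Rab3a*, *Rab27a* and *Sytl4* read lower than the mean of the other quiescent arrays by more than 2 on the log2 scale, 4 of 9 genes against 9.19% of all genes. *Rab27a* was lower there by a log2 difference of -4.06, at the 0.414th percentile of all genes, and *Snap25* by -3.38, at the 1.65th percentile. *Unc13a* and *Syt7* read higher there, with differences of 0.49 and 0.21. Leaving out that array takes its replicating pair out of the blocked fit as well, so the array and its preparation cannot be told apart there.

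The mean of the 9 genes after scaling each to its own mean and SD was -1.10 on the quiescent array of preparation 2 and 0.71 on that of preparation 3, and between -0.07 and 0.17 on the other 4 arrays. The 5 genes outside the lists that followed this mean most closely, among 14482 genes well above background on all arrays, were *Dph3*, *Tbck*, *Slc25a17*, *Usp16* and *Esd*, with Pearson r of 0.997 to 0.999 over the 6 arrays. An r over 0.95 was found for 1070 genes, and the points share the array that stood apart.

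The wider set of exocytosis genes was taken from a list by role, of which 87 of 92 genes were found by name. In it 2 genes were called higher and 3 lower, where the shares over all genes were 5.63% and 2.76%. Without preparation 3 these counts were 17 and 11. The shares of all genes called in that fit are not given here, so these counts have nothing to be set against. The median ratio was 0.11, and 47 genes lay above 0 and 40 below. With the scanner's processed signal, which moved the median of all genes to -0.48, the median of the wider set was -0.22. None had an adjusted p under 0.05.

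Of the called genes, *Rab3b*, a close relative of *Rab3a*, rose in replicating cells. It read 10.92, 10.80 and 10.97 against 9.88, 7.32 and 9.93 in quiescent cells, with a ratio of 1.86 ± 0.59 (adjusted p 0.475, limma). Its groups did not overlap, and it was called under all 16 alternatives tried, with ratios of 1.04 to 2.26. *Exoc1*, a subunit of the exocyst that tethers vesicles to the plasma membrane, rose as well, by 1.83 ± 0.62. Its ratio in preparation 3 was 0.37, and it was not called without preparation 1, without preparation 2 or with the scanner's processed signal. The Rab3 and Rab27 group had the highest median of the roles, 1.02 over the brightest probes of 8 genes. Of these 8, 4 were also more than 2 lower on the quiescent array of preparation 2. In preparation 3 the group's median was -0.18, with 3 of 8 ratios above 0. The other *Rab3ip* probe gave a ratio of -0.61, against 1.19 for the brightest. The other *Rab3gap2* probes gave -0.104 and 0.102, below the ratio of its brightest probe. The other *Rab27b* probes gave -0.203 and -0.214, above that of its brightest.

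The genes that fell were *Syt5*, *Stxbp6* and *Stxbp4*. *Syt5*, a synaptotagmin, read 10.37, 10.88 and 10.63 in replicating cells against 11.60, 11.91 and 11.69, and its ratio of -1.11 ± 0.30 was the most even of the 5, at -1.23, -1.03 and -1.05 by preparation. *Stxbp6*, amisyn, which binds syntaxin in place of a VAMP, fell by 1.31 on the log2 scale in its brightest probe, and its other probes gave -1.39 and 0.12, neither of them called. The brightest probe named *Stxbp4*, a syntaxin-4 binding protein, fell by 1.02, but the array files place it on chromosome 6 and the other probes of that name on chromosome 10. Those chromosome 10 probes gave 0.43 and -0.03 and were not called. None of the 3 genes was called without preparation 1 or with the scanner's processed signal. *Syt5* was also not called at a normexp offset of 0 or with scaled normexp values, and *Stxbp6* not without the block or with the median over its probes. *Stxbp4* was called under 7 of 16 alternatives, lost its call without preparation 2 as well, and had ratios of -1.41 to 0.28, so that its sign turned.

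Among the close relatives of the 9 genes that were not called, the SNAREs *Snap23* and *Vamp8* had ratios of 0.91 (interval -0.02 to 1.84) and 0.88 (interval -0.18 to 1.94), each above 0 in all preparations in the brightest probe. The other *Snap23* probe gave 0.49 and was -0.10 in preparation 3. *Stx3* had a ratio of 0.70 in its brightest probe and of 0.13 and 0.15 in the others, which were below 0 in preparation 3. *Stx4* had a ratio of -0.70 (interval -1.66 to 0.26), with other probes at -0.78 and 0.12. *Vamp3* had a ratio of 0.77 (interval -0.84 to 2.38), and by preparation it was 0.30, 2.50 and -0.48. On the quiescent array of preparation 2, *Vamp3* differed from the mean of the other quiescent arrays by -2.55. *Syt9*, another calcium sensor of β-cells, had a ratio of 0.95 (interval -0.18 to 2.08) in its brightest probe and of -0.98 (interval -2.15 to 0.20) in the other, so that its probes differed in sign. *Syt1* had one of -2.22 (interval -5.30 to 0.86) in its brightest probe, with other probes at -0.03 and 0.06. By preparation the brightest *Syt1* probe gave -2.58, -5.28 and 1.19. On the quiescent array of preparation 2 it read 3.85 above the mean of the other quiescent arrays.

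For the GTPases and effectors, *Rab3c* had a ratio of 1.45 (interval -0.34 to 3.24), *Rab3d* 0.24 and *Rab27b* -0.48. By preparation the *Rab3c* ratio was 1.23, 3.31 and -0.19. *Unc13b* had a ratio of -0.06, *Rims1* 0.02 and *Sytl5* 0.80. None of these 6 intervals excluded 0.

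**Figure D4:**
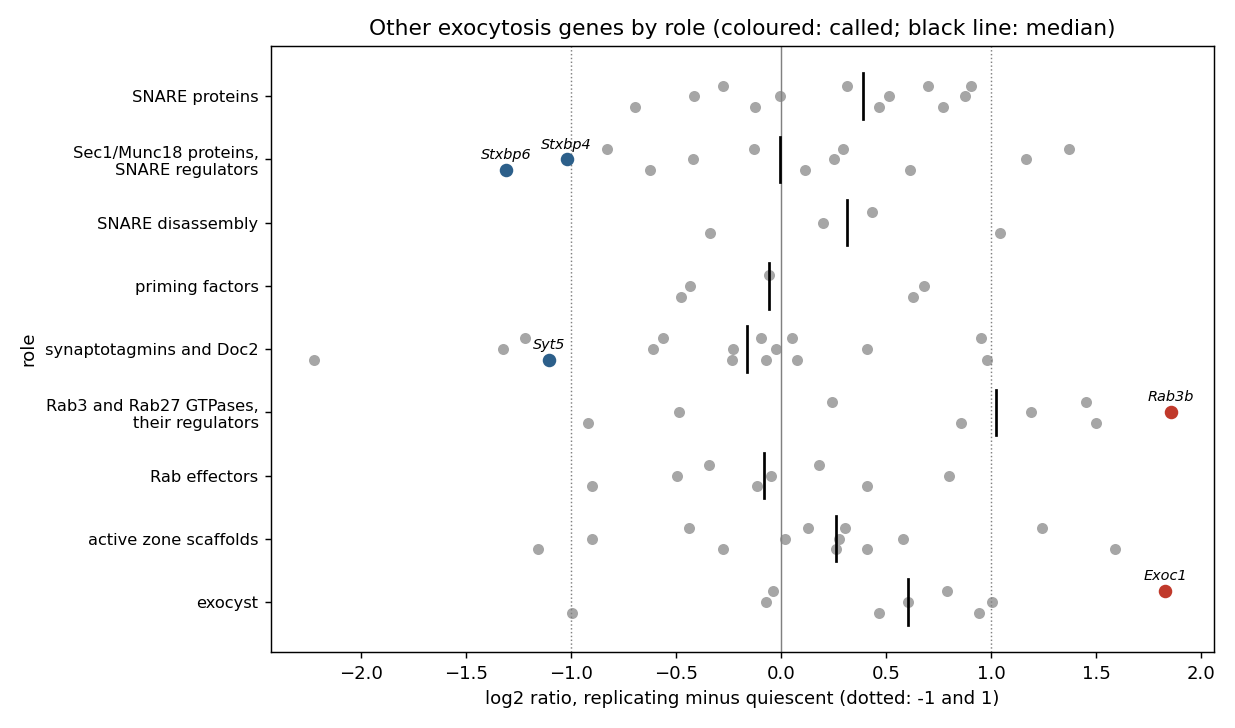
Log2 ratio of replicating against quiescent cells (x axis) for 87 other exocytosis genes grouped by role (y axis), 1 point per gene, with coloured and named points for called genes and a black line for the median of each role. *Rab3b* and *Exoc1* lie on the right at 1.86 and 1.83, and *Syt5*, *Stxbp6* and *Stxbp4* on the left between -1.31 and -1.02.

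Several marker lists of other cells held genes called higher in replicating cells, where 5.63% of all genes were called higher. Of the α-cell markers 2 of 7 were called higher in replicating cells, of the δ-cell markers 2 of 3, of the fibroblast and stellate markers 4 of 9 and of the immune markers 3 of 6, and the PP-cell marker *Ppy* was called as well. Calls were 1 of 9 for the acinar list (*Prss1*) and 1 of 6 for the duct list (*Spp1*), both higher in replicating cells. The endothelial list had 0 of 6. In the duct list 5 of 6 ratios lay below 0, and the median was -0.33. The acinar list had 5 ratios above 0 and 4 below, and the endothelial list 3 and 3. The mean log2 level of the α-cell list was 8.79 to 9.60 in replicating and 7.92 to 8.67 in quiescent samples, that of the δ-cell list 8.23 to 9.15 and 7.05 to 8.06, and that of the fibroblast list 9.33 to 10.51 and 8.28 to 8.46. *Gcg* and *Sst* had ratios of 2.39 and 1.74. Islet α- and δ-cells also release their hormones through SNARE proteins, and of the neuron and Schwann list, whose cells share most of this machinery, 0 of 10 were called and its mean level was 8.01 to 8.14 against 7.68 to 8.13. In the β-cell list 1 of 9 genes, *Mafa*, was called lower, at -1.01. Of the β-cell ratios, 3 lay above 0 and 6 below, with a median of -0.56. The part of these cells in the exocytosis ratios was not tested, and fewer cells of a type and less RNA per cell cannot be told apart in sorted pools.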

How the data were processed

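RNA of the fixed, sorted cells underwent whole transcriptome amplification and Cy3 labelling, and was hybridized to Agilent rat arrays on 1 slide. The authors deposited the intensity values of Feature Extraction 10.7.3.1. They also deposited log2 values, for which they had applied normexp and then quantile normalization. These log2 values kept the order of normexp values recomputed here with an offset of 50 (Spearman's rho of 1 on each array), with a largest difference of 0.116. Each array had a median of 8.32.

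The deposited values were analysed. Control spots and spots marked as outliers were dropped, and a probe's remaining spots were averaged (R 4.3.3). All 45598 probes were fitted in limma 3.58.1 (lmFit, eBayes) blocking on islet preparation, which the study's methods also did. The pairing comes from the design, with 1 sample of each group per preparation. Deviations from the group means had an r of 0.0561, 0.242 and 0.259 between paired arrays. The number of arrays limits the precision. The 9 genes, the role lists and the markers were chosen with earlier results of these data known. Beyond the 9, the genes named are those called in the wider set, the closest relatives of the 9 and the 5 most similar in pattern, and some genes that meet this rule are not reported here. *Baiap3*, *Rab37*, *Rab3gap1*, *Sytl2* and *Exph5* were not found by name. Probe positions are those of the array files (build rn4), which do not say whether a probe lies in coding sequence. For *Syt7* and *Rab3a* this was taken from general knowledge of the proteins. Symbols came from RefSeq (assembly GRCr8), used for names only. The fit was tested on simulated data with the same spread in both groups and no array that stood apart. That test therefore cannot show how the fit behaves with the uneven spread of these arrays. The alternatives were other background corrections, scalings and filters, outlier spots kept, no block, a variance trend, array weights, the median over probes, names through accessions and each preparation left out.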

Additional observations from a re-analysis of the deposited data

How the results depend on the processing

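With 3 pairs, the ratios had wide intervals, and the quiescent array of preparation 2 weighed on many of them. Of the 9 exocytosis genes, none was called lower under any of 16 alternatives, and *Rab3a* was called higher under 1, without preparation 3, so that 0 to 1 genes were called higher when a preparation was left out. The median ratio of the 9 genes ranged from -0.27 (without preparation 2) to 0.64 (without preparation 3). Between the alternatives, the sign of the ratio changed for *Vamp2* and *Rims2* under 3 each, for *Stx1a* and *Sytl4* under 2 each and for *Snap25* and *Rab27a* under 1 each. The ratio of *Rims2* reached -1.94 with the processed signal. Leaving out a preparation gave 1 to 17 wider genes called higher and 0 to 11 called lower, the most without preparation 3, and a median of -0.09 to 0.32. With Feature Extraction's processed signal scaled to the 75th percentile, 1 wider gene was called higher and 0 lower, their median was -0.22, and the median of all genes moved to -0.48. Cyclic loess gave 6 called higher, scaling of the normexp values 7 called lower (all-gene median -0.28), a normexp offset of 0 gave 1 called lower, and the median over probes gave 1 called lower. Without the replicate block, 1 wider gene was called lower and 2 higher, the member count was 0 and their median 0.30, and the block changed no call of the 9. Weighting the arrays, chosen after seeing the data, gave 7 called higher and 10 lower. Its weights ran from 0.137 to 4.03, the lowest being 0.137 and 0.197 for the quiescent arrays of preparations 2 and 3. With these weights 13301 of 45598 probes had an adjusted p (limma) under 0.05, against 0 to 719 under the other alternatives. The shares of all genes called under the alternatives are not given here, so the counts of wider genes cannot be set against them. The cause of these differences was not tested.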
